A study of Mus musculus with 20 samples.

Results

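The 10 genes described here encode the enzymes that cut procollagen and crosslink collagen outside the cell, together with the lysyl hydroxylases that prepare it inside: the lysyl oxidases Lox, Loxl1, Loxl2, Loxl3 and Loxl4, the lysyl hydroxylases Plod1, Plod2 and Plod3, the procollagen C-proteinase Bmp1 and its enhancer Pcolce. They were taken by gene name from the deposited table of 22660 gene rows, and all 10 had a row and enough counts to be tested in every comparison. RNA was sequenced from the plantaris muscle of 20 old male mice of about 2 years, with 5 different animals in each of 4 groups. MOV is mechanical overload of the plantaris, produced by removing part of the gastrocnemius and soleus muscles that share its work, whereas sham mice had surgery without that removal. The senolytic treatment D + Q, meant to clear senescent cells, combined the tyrosine kinase inhibitor dasatinib at 5 mg/kg with the plant flavonoid quercetin at 50 mg/kg. D + Q or vehicle was given by gavage at days 7 and 10, and muscle was collected at day 14 after surgery. The treatment protocol gives these days for all mice, but the design text of the series gives day 14 for the second gavage of sham mice. The groups are called vehicle sham, vehicle MOV, D + Q sham and D + Q MOV.

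A fibrillar collagen is made as a longer procollagen. Lysyl hydroxylases add hydroxyl groups to lysines of the chain in the endoplasmic reticulum, proteinases trim the ends once it is secreted, and lysyl oxidases, which need copper, then oxidise lysine and hydroxylysine so that neighbouring molecules bond to each other. PLOD2, the product of Plod2, acts on the telopeptides at the ends of the chain and so favours the stable hydroxylysine-derived crosslinks known from scar and fibrotic tissue. In muscle and its tendon, fibroblasts and tendon cells are main sources of fibrillar collagen.

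Levels are given in CPM, that is, counts relative to the size of the library after TMM scaling over the 20 mice. The libraries held 17887495 to 26234505 counts. Muscle fibre markers made up 122500 to 141300 CPM in sham muscle and 67820 to 99000 CPM in MOV muscle, so the libraries had the fibre RNA that the tissue label calls for. In whole muscle, a change in the number of cells of a type and a change in RNA per cell cannot be told apart. No source ties the mice to separate litters or batches.

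The sequence ahead of the annotated starts of the 4 lysyl oxidase-like genes is shown as a description. Its relation to their rise under overload was not tested. The 250 bases before the most upstream annotated start of each are printed 5′ to 3′ on the strand of the gene, from the GRCm39 genome, and none overlaps an annotated exon. Capitals mark matches, on either strand, to any of 6 motifs searched: the hypoxia response element core ACGTG, AP-1 (TGANTCA), the SMAD box CAGACA, TEAD (GGAATG), the GC box GGGCGG and the TATA box TATAAA.
Loxl1, chr9:58220496-58220745 (-): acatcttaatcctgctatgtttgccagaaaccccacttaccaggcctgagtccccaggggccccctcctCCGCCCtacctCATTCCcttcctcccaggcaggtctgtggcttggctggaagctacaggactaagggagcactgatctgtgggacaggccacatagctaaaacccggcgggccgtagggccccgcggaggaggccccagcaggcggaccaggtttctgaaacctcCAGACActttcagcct
Loxl2, chr14:69845959-69846208 (+): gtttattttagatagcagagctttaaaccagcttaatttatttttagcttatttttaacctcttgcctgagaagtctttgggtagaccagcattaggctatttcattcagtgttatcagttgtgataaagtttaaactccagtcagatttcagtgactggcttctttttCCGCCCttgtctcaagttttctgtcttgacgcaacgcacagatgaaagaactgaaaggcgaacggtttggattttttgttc
Loxl3, chr6:83010902-83011151 (+): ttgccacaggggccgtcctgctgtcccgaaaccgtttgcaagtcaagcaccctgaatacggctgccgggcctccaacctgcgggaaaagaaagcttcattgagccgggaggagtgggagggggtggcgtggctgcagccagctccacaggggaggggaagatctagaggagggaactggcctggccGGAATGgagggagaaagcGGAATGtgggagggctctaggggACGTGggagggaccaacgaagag
Loxl4, chr19:42601253-42601502 (-): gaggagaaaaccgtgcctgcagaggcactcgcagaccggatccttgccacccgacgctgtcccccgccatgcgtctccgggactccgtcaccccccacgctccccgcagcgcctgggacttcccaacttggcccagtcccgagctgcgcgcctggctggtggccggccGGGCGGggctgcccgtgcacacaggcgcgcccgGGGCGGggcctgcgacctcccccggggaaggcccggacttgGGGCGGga
Their GC content ran from 37.6% before Loxl2 to 75.2% before Loxl4, with 60.8% before Loxl1 and 62.8% before Loxl3. The Loxl3 window held a pair of TEAD matches, 64 and 46 bases before the start, and an ACGTG 23 bases before it. The Loxl1 window held 1 GC box, 181 bases before the start, 1 TEAD match at 170 bases and 1 SMAD box at 16 bases. The Loxl4 window held 3 GC boxes and the Loxl2 window 1. Over the same window of 21729 protein-coding genes, 16.4% held ACGTG, 6.46% AP-1, 16.1% the SMAD box, 12.4% TEAD, 29.9% the GC box and 12.5% the TATA box. These are matches of letters only.

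With vehicle, every one of the 10 genes was higher in MOV than in sham muscle, from 1.81-fold for Plod1 to 37.8-fold for Lox. All 10 passed the edgeR test at an adjusted p under 0.05 and all 10 had every MOV mouse above every sham mouse. Among the 14601 genes tested, 30.7% were called higher and 23.6% were higher without overlap. The median of the 10 log2 fold changes was 2.52, beside -0.02 over all genes tested. The plot of levels by mouse shows the same separation in each panel.

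**Figure D1:**
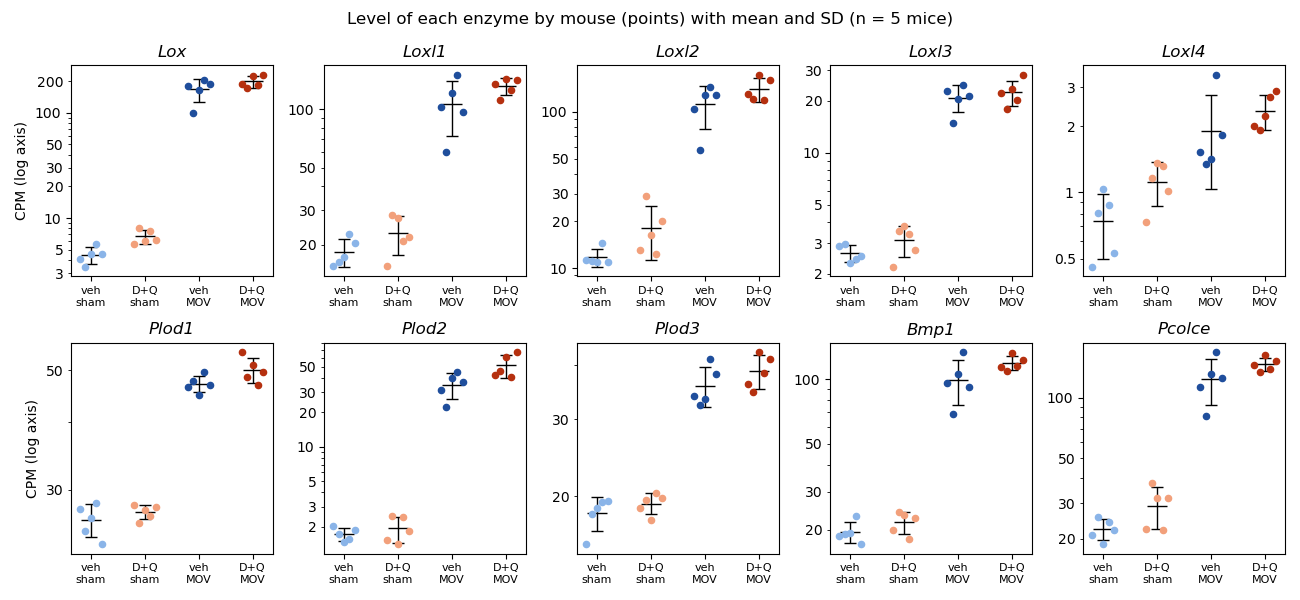
Level of each of the 10 genes in CPM (log axis, its range set per panel) in each mouse, by group. Points are mice, and the black marks are the mean and SD of 5 mice. In every panel both MOV groups lie above the sham group with the same treatment, and the steps are largest for Lox and Plod2.

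Lox, the founding lysyl oxidase, rose most. Its level was 4.05, 3.45, 4.58, 5.71 and 4.54 CPM in vehicle sham mice and 178.8, 98.9, 163.7, 205.0 and 187.5 CPM in vehicle MOV mice. The lowest overloaded mouse was still far above the highest sham mouse. The log2 fold change was 5.24 ± 0.222 (SE; edgeR adjusted p = 1.35e-08), and 0.342% of the genes tested rose more.

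Plod2 came next, and it separated from its own family. Its levels were 2.03, 1.73, 1.48, 1.57 and 1.89 CPM in vehicle sham and 31.0, 22.1, 39.9, 44.9 and 36.9 CPM in vehicle MOV. The log2 fold change was 4.33 ± 0.2 (SE; edgeR adjusted p = 3.64e-09), a 20.1-fold rise. Plod1 and Plod3, which encode the other two lysyl hydroxylases, rose by a far smaller factor although every overloaded mouse was above every sham mouse. Plod1 went from 27.7, 25.2, 26.6, 28.4 and 23.8 CPM to 46.6, 47.6, 45.0, 49.6 and 46.9 CPM, a log2 fold change of 0.85 ± 0.0675 (SE; edgeR adjusted p = 9.1e-08). Plod3 went from 15.6, 18.2, 18.8, 19.5 and 19.5 CPM to 33.9, 32.3, 33.3, 41.3 and 38.1 CPM, a log2 fold change of 0.98 ± 0.09 (SE; edgeR adjusted p = 3.48e-07). The 95% interval of the Plod2 change, 3.90 to 4.76, lay above those of Plod1, 0.71 to 1.00, and Plod3, 0.79 to 1.17.

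The lysyl oxidase-like genes took intermediate places. Loxl2, whose product is known for crosslinking the collagen IV of basement membranes, rose from a mean of 11.8 ± 1.54 CPM to 112.5 ± 34.3 CPM (SD, n = 5), a log2 fold change of 3.27 ± 0.241 (SE). Loxl3 rose from 2.64 ± 0.292 to 20.8 ± 3.67 CPM, by 2.99 ± 0.146 (SE) on the log2 scale. Loxl1, which is required for elastic fibre upkeep, rose from 18.4 ± 2.99 to 106.3 ± 33.3 CPM, by 2.55 ± 0.229 (SE). Loxl4 was the rarest member, with 9 to 78 counts per vehicle library, and rose least in this family. Its levels were 0.46, 0.81, 1.03, 0.87 and 0.53 CPM in vehicle sham and 1.53, 1.35, 1.41, 3.41 and 1.82 CPM in vehicle MOV. The log2 fold change of Loxl4 was 1.39 ± 0.34 (SE; edgeR adjusted p = 0.00244), the least precise of the 10.

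The RNAs of Bmp1 and its enhancer Pcolce, whose proteins act in removal of the C-propeptide, rose by nearly the same factor. Bmp1, the proteinase itself, went from 18.7, 19.0, 19.4, 23.1 and 17.1 CPM to 95.5, 69.2, 105.4, 133.0 and 91.8 CPM. Its log2 fold change was 2.36 ± 0.154 (SE; edgeR adjusted p = 1.2e-07). Pcolce, which binds the propeptide and speeds its removal, went from 20.9, 25.7, 18.8, 24.3 and 21.97 CPM to 113.6, 81.2, 130.5, 167.9 and 125.7 CPM. Its log2 fold change was 2.48 ± 0.173 (SE; edgeR adjusted p = 2.95e-07). The root mean square difference between the log2 CPM profiles of these genes over the 20 mice, each centred on its own mean, was 0.148, second to the 0.145 between Plod1 and Plod3 among all pairs of members.

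With D + Q, overload gave nearly the same order. All 10 genes were called higher by edgeR and all 10 groups were separated, where 34.4% of the 14913 genes tested were called higher and 26.2% were higher without overlap. The median log2 fold change of the members was 2.54, beside 0.02 over all genes. Lox went from 5.67, 8.04, 6.10, 7.48 and 6.16 CPM in D + Q sham to 188.0, 170.2, 224.6, 185.6 and 229.1 CPM in D + Q MOV, by 4.95 ± 0.114 (SE) on the log2 scale. Plod2 went from 1.52, 2.50, 1.42, 2.43 and 1.83 CPM to 41.9, 46.0, 60.6, 41.0 and 66.6 CPM, by 4.77 ± 0.206 (SE), or 27.4-fold. The other 8 rose by 0.92 for Plod1, 1.05 for Plod3, 1.11 for Loxl4, 2.38 for Pcolce, 2.50 for Bmp1, 2.58 for Loxl1, 2.87 for Loxl3 and 3.01 for Loxl2, with the highest edgeR adjusted p, 0.00047, at Loxl4. The plot of overload fold changes sets the 2 treatments side by side.

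**Figure D2:**
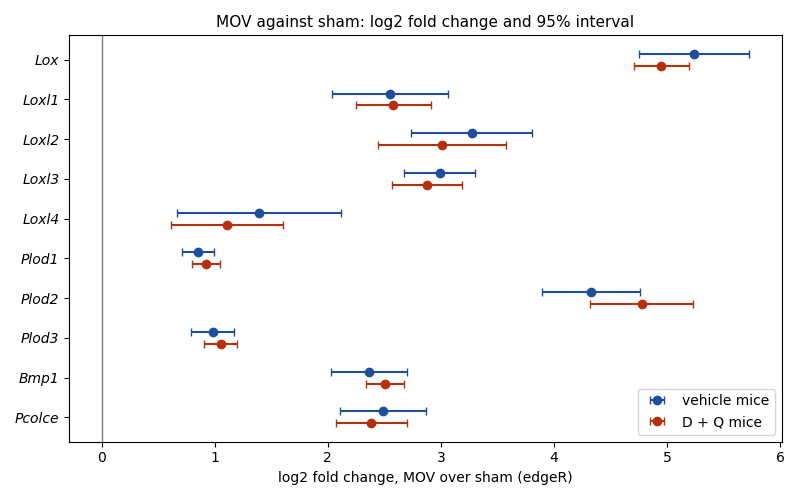
Log2 fold change of MOV over sham (horizontal axis, edgeR) for each gene, with 95% intervals, in vehicle mice and in D + Q mice (5 against 5 in each). Lox and Plod2 stand at 4.33 to 5.24, Plod1 and Plod3 at 0.85 to 1.05, and the others between.

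Whether overload raised the genes differently with D + Q than with vehicle was tested as an interaction over all 20 mice. None of the 10 members passed it by edgeR, none had an unadjusted p under 0.05, and none passed by DESeq2 or limma-voom. Of the 15700 genes tested, 0.0127% were called. The estimates ran from -0.33 for Lox to 0.41 for Plod2, and the interval for Plod2, -0.28 to 1.10 on the log2 scale, was wide.

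Because the members rose by such different factors, the makeup of each family differed between sham and MOV. Levels can be compared between genes only per length, so CPM were divided by the length of the canonical transcript in kilobases (kb). On that scale the lysyl oxidase family summed to 9.45 ± 1.26 CPM per kb in vehicle sham and 93.4 ± 24.9 in vehicle MOV (SD, n = 5), and to 12.6 ± 2.89 and 113.7 ± 14.4 with D + Q. Loxl1 held 58.3% ± 2.54 of the family in vehicle sham and 34.0% ± 2.97 in vehicle MOV, while Lox held 9.86% ± 0.903 and 37.6% ± 2.73. No mouse overlapped for either gene: the Lox share was at most 10.7% in vehicle sham and at least 34.2% in vehicle MOV. Loxl2 held 23.5% ± 1.59 and 22.4% ± 1.96, a share that differed by less than its spread. With D + Q the Lox share went from 11.4% ± 2.08 to 36.7% ± 0.654 and the Loxl1 share from 54.3% ± 3.69 to 34.9% ± 1.59.

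In the lysyl hydroxylase family it was Plod2 whose share was higher in MOV. The family summed to 10.5 ± 0.438 CPM per kb in vehicle sham and 28.2 ± 3.41 in vehicle MOV, and to a mean of 10.97 ± 0.38 and 33.9 ± 4.04 with D + Q. Plod2 made up 4.48% ± 0.725 of the family in vehicle sham and 32.9% ± 5.09 in vehicle MOV, and 4.73% ± 1.12 and 40.2% ± 4.44 with D + Q. Plod3 held 52.7% ± 3.36 and 38.4% ± 2.06, and Plod1 42.8% ± 3.07 and 28.8% ± 3.37, in vehicle sham and vehicle MOV, although the levels of both rose. The Plod2 shares of vehicle MOV (24.9 to 37.7%) and D + Q MOV (35.9 to 46.1%) overlapped. Shares follow from the levels already tested and were given no test of their own.

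**Figure D3:**
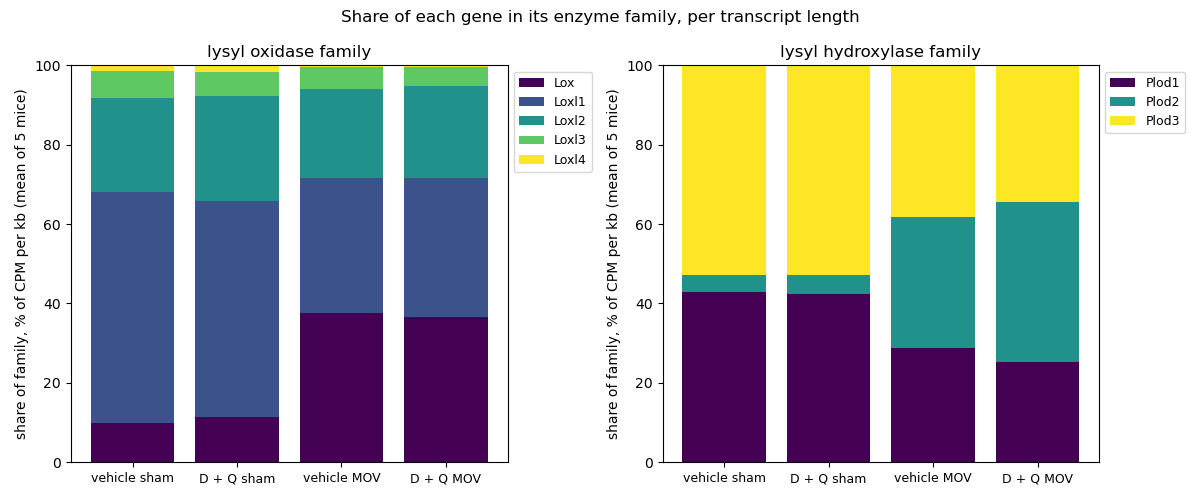
Share of each gene in its family (vertical axis, percent of CPM per kb, mean of 5 mice) in the 4 groups, for lysyl oxidases (left) and lysyl hydroxylases (right). Lox goes from 9.86 to 37.6% and Plod2 from 4.48 to 32.9% between vehicle sham and vehicle MOV.

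The substrates of these enzymes rose as well, so each member was set against the summed counts of Col1a1, Col1a2 and Col3a1, the chains of the main fibrillar collagens, in the same mouse. That sum had a median of 210.1 CPM in vehicle sham and 9103 CPM in vehicle MOV, and of 382.4 and 11256 CPM with D + Q. The ratio of Lox to that sum differed by less than its spread. In vehicle mice there were 19.7 ± 2.69 Lox counts per 1000 collagen counts in sham and 19.6 ± 1.54 in MOV, and with D + Q there were 17.8 ± 4.92 and 17.5 ± 0.816, with overlapping mice in both cases. The other 9 members had a lower ratio in every vehicle MOV mouse than in every vehicle sham mouse, but so did 94.4% of the 15700 genes tested (94.8% with D + Q), since the collagen sum itself is far higher in MOV. The lower ratio is therefore not particular to these enzymes. Among these the ratio of Plod2 differed least, at 7.84 ± 1.76 and 4.11 ± 0.227, and with D + Q its values of 5.02 ± 1.24 and 4.47 ± 0.699 overlapped. That of Plod1 differed most, at 118.5 ± 23.7 and 5.86 ± 1.73 per 1000, or 20.2-fold lower in MOV. The mean ratio was 18.8-fold lower for Plod3, and for the others it was lower by 15.2-fold (Loxl4), 7.42-fold (Bmp1), 6.88-fold (Pcolce), 6.55-fold (Loxl1), 4.82-fold (Loxl3) and 4.02-fold (Loxl2). These ratios do not depend on library scaling, but they move with the collagen counts as much as with the enzymes, and they too are a description.

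**Figure D4:**
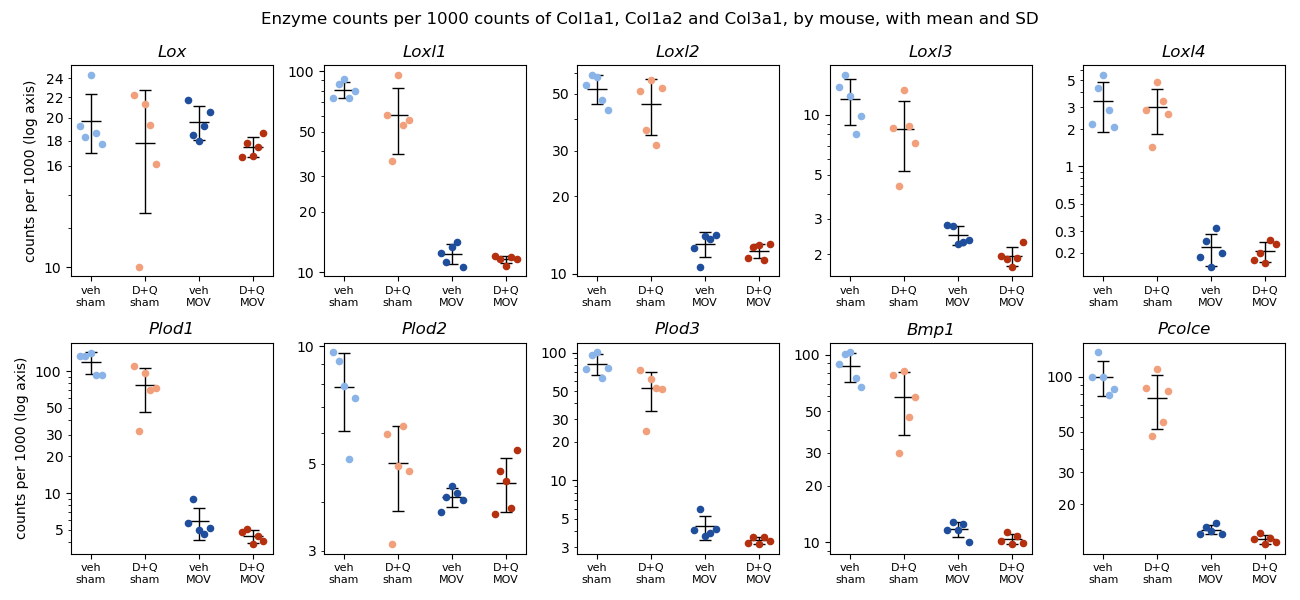
Counts of each gene per 1000 counts of Col1a1, Col1a2 and Col3a1 together (log axis, its range set per panel) in each mouse, by group. Points are mice, and the black marks are the mean and SD of 5 mice. Lox stays between 10.0 and 24.4 in all 20 mice, whereas Plod1 goes from a mean of 118.5 to 5.86 in vehicle mice.

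D + Q and vehicle were then compared within overloaded muscle. None of the 10 members passed edgeR's test, as 0% of the 15238 genes tested did, and none passed by DESeq2 or limma-voom. All 10 estimates were above 0, from 0.08 for Plod1 to 0.54 for Plod2, with a median of 0.25 against 0.00 over all genes. At an unadjusted p under 0.05 there was 1 of the 10, where 4.19% of all genes were higher by that rule. No member had separated groups, as 0.748% of all genes had in that direction. The single member was Plod2, with the values per mouse given above: D + Q MOV mice ran from 41.0 to 66.6 CPM and vehicle MOV mice from 22.1 to 44.9 CPM, and only vehicle MOV replicate 4 reached into the D + Q range. Its log2 fold change was 0.54 ± 0.194 (SE, 95% interval 0.12 to 0.97; edgeR adjusted p = 0.523). For Lox the estimate was 0.25 (95% interval -0.11 to 0.61), for Loxl2 0.31 (-0.17 to 0.80) and for Plod1 0.08 (-0.05 to 0.21).

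The vehicle MOV mice differed among themselves in a shared way. Replicate 2 was the lowest of its group for 9 of the 10 members and replicate 4 the highest for all 10. Fibroblast markers summed to 724 CPM in replicate 2 and 1463 CPM in replicate 4, again the lowest and highest of the group. Tenocyte markers summed to 527 and 865 CPM and macrophage markers to 105 and 306 CPM in these mice, and muscle fibre markers to 99000 and 68910 CPM, which were the highest and the lowest of the group. Without replicate 2 the median of the 10 estimates of D + Q against vehicle in MOV was 0.13 and 9 were above 0, with Loxl3 at -0.01 and Plod2 at 0.42. Without replicate 4 the median was 0.37.

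In sham muscle the result was similar. None of the 10 passed edgeR's test or limma-voom's, where edgeR called 0.187% of the 13926 genes tested higher. Again all 10 estimates were above 0, from 0.04 for Plod1 to 0.60 for Loxl2, with a median of 0.27 against 0.00 over all genes. Lox, Loxl2 and Pcolce were higher at an unadjusted p under 0.05, as 5.39% of all genes were, and no member had separated groups, as 1.34% of all genes had. Lox, at the levels given above, differed by 0.57 ± 0.15 on the log2 scale (SE; edgeR adjusted p = 0.164), and the D + Q mouse with the least Lox, at 5.67 CPM, was just below the vehicle mouse with the most, at 5.71 CPM. DESeq2 called Lox alone of the 10 (adjusted p = 0.0429), where it called 0.909% of genes higher. Over all alternatives the adjusted p of Lox lay between 0.0429 and 0.374.

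Loxl2 in sham rested on fewer mice. It stood at 11.3, 11.1, 10.9, 14.5 and 11.01 CPM in vehicle sham and at 13.1, 28.9, 16.2, 12.2 and 20.1 CPM in D + Q sham, a log2 difference of 0.60 ± 0.224 (SE; edgeR adjusted p = 0.403). D + Q sham replicate 2 was the highest of its group for 6 of the 10 members, and without it the Loxl2 estimate was 0.38. Pcolce stood at 22.3, 37.7, 31.7, 21.96 and 31.8 CPM in D + Q sham, with 2 of the 5 mice inside the range of vehicle sham, and differed by 0.37 ± 0.15 (SE; edgeR adjusted p = 0.434). These comparisons share their vehicle and D + Q groups with those of overload against sham, so their estimates are not independent of them.

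**Figure D5:**
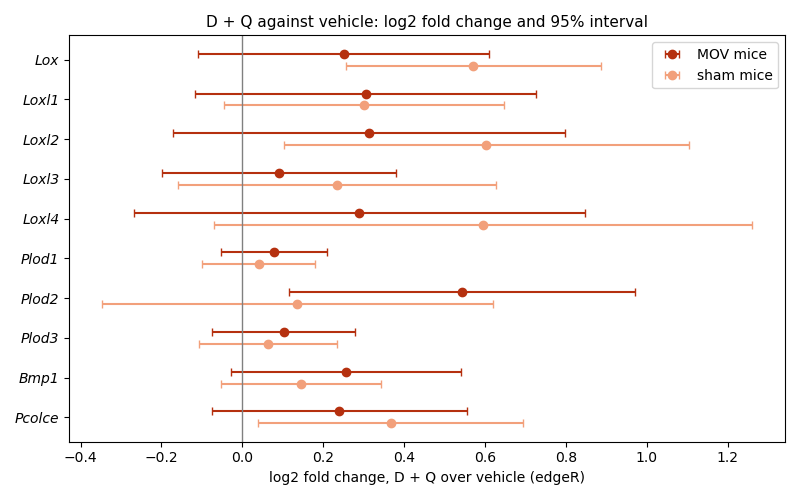
Log2 fold change of D + Q over vehicle (horizontal axis, edgeR) for each gene, with 95% intervals not adjusted for the number of genes, in MOV mice and in sham mice (5 against 5 in each). All 20 estimates lie above 0, and the intervals of Plod2 in MOV and of Lox, Loxl2 and Pcolce in sham exclude 0.

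The order of the group means was the same for all 10 members: vehicle sham was lowest, then D + Q sham, then vehicle MOV, with D + Q MOV highest. Of the 15700 genes tested over all 20 mice, 19% had their means in this order. The 2 sham groups and the 2 MOV groups overlapped for each gene. Between the middle groups, every vehicle MOV mouse was above every D + Q sham mouse for 9 members, where 22.3% of the 15700 genes had no such overlap, and Loxl4 was the exception, with 1.35 CPM in the lowest vehicle MOV mouse and 1.37 CPM in the highest D + Q sham mouse.

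Markers of other cell types moved with overload beside these genes. In vehicle mice all 6 fibroblast markers were called higher by edgeR, and their summed level went from a range of 302 to 421 CPM in sham to 724 to 1463 CPM in MOV. All 4 tenocyte markers were higher, from 46.8 to 58.4 CPM up to 527 to 865 CPM, and all 6 macrophage markers, from 21.96 to 56.1 CPM up to 105 to 306 CPM. Of the others, 3 of 5 endothelial, 2 of 4 mural and 3 of 3 satellite cell markers were higher. Of the 6 muscle fibre markers 3 were lower and 1 higher. Among all genes tested in vehicle mice, 30.7% were called higher and 29.8% lower. Of the 3 chondrocyte or bone markers 2 had a row. Acan, the core protein of cartilage aggrecan, had 0 to 3 counts in vehicle sham mice and 106 to 228 in vehicle MOV mice, at least 38.8-fold higher against a floor of 3 counts per mouse (edgeR adjusted p = 1.96e-08). Sost had no count in any vehicle sham mouse and 0 to 2 counts in vehicle MOV mice, too few to be tested. The medians of the summed levels were 2.61-fold higher for fibroblast, 12.4-fold for tenocyte and 6.38-fold for macrophage markers. The fibroblast sum was mostly Dcn, at a mean of 244.1 CPM in vehicle sham. The tenocyte sum was mostly Thbs4, at a mean of 40.6 CPM in vehicle sham and 600.8 CPM in vehicle MOV. Thbs4 rose 14.9-fold, Tnmd 14.2-fold, Mkx 5.12-fold and Scx 3.21-fold. The median log2 rise over single markers was 2.18 for fibroblasts, 3.09 for tenocytes and 2.66 for macrophages, and the log2 rises of Lox (5.24) and Plod2 (4.33) were larger than each of these medians and those of Plod1 (0.85) and Plod3 (0.98) smaller. These are descriptions, with no test of the difference. With D + Q the estimates of all 6 fibroblast markers were above 0 in MOV (median 0.28) and in sham (median 0.40). Those of all 4 tenocyte markers were above 0 in MOV (median 0.34) and in sham (median 0.35), and those of 5 of the 6 macrophage markers in MOV (median 0.26) and in sham (median 0.18). None of these was called. Their part in the results for the enzymes was not tested.

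The rest of the procollagen pathway also rose with overload, by lists chosen with earlier results known. Over all genes tested, 30.7% were called higher and 29.8% lower with vehicle, and 34.4% and 30.9% with D + Q. Of 16 other modifying enzymes and chaperones of the endoplasmic reticulum, 13 were called higher and none lower in vehicle mice, with a median log2 fold change of 1.48, and with D + Q 15 were higher and Tmem38b, a potassium channel of that compartment, was lower. The largest called rises in vehicle mice were in P4ha3, Fkbp10 and Serpinh1. P4ha3, a catalytic subunit of prolyl 4-hydroxylase, was barely detected in vehicle sham, where the mice had 0, 0, 0, 1 and 4 counts, and reached 13.8 ± 2.59 CPM in vehicle MOV (SD, n = 5). Fkbp10, which encodes a chaperone that aids the dimerisation of lysyl hydroxylase 2, rose from 2.92 ± 0.808 to 33.6 ± 7.27 CPM, by 3.54 ± 0.204 (SE) on the log2 scale. Serpinh1, the collagen chaperone HSP47, rose from 31.5 ± 3.24 to 249.0 ± 59.6 CPM, by 3.00 ± 0.152 (SE).

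Of 6 other procollagen proteinases and enhancers 5 were tested. Of these, 4 were called higher with either treatment, beside 30.7% of all genes with vehicle and 34.4% with D + Q. Adamts14 and Adamts2, which remove the N-propeptide, rose by 3.14 ± 0.224 and 2.50 ± 0.224 (SE) on the log2 scale in vehicle mice, and Tll1, a relative of Bmp1, rose by 2.92 ± 0.409 from a mean of 0.23 CPM. Of 6 partners of the lysyl oxidases, 5 were called higher with either treatment, beside the same shares of all genes. Postn, encoding periostin, which binds BMP1 and helps it activate lysyl oxidase, went from 6.65 ± 3.98 to 1478 ± 302 CPM. Fn1, encoding fibronectin, rose by 4.34 ± 0.307 (SE) on the log2 scale and Efemp2, encoding fibulin-4, which binds the lysyl oxidase precursor, by 2.27 ± 0.207 (SE). The exception was Atp7a, the transporter that delivers copper to lysyl oxidases, with 3.97 ± 1.01 CPM in vehicle sham and 3.67 ± 1.04 CPM in vehicle MOV (edgeR adjusted p = 0.709).

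Of the 10 substrate genes 9 were higher and 1 lower with either treatment, with a median of 4.53 in vehicle mice. The shares of all genes called higher were 30.7% with vehicle and 34.4% with D + Q, and lower 29.8% and 30.9%. Col1a1 rose by 5.58 ± 0.207, Col3a1 by 5.28 ± 0.235 and Col5a2 by 4.95 ± 0.2 (SE) on the log2 scale in vehicle mice. Col11a2 was the one that fell, from 21.8 ± 5.76 to 10.2 ± 1.71 CPM, a log2 fold change of -1.08 ± 0.191 (SE; edgeR adjusted p = 0.000369). With D + Q, the estimates of all 10 substrates were above 0 in MOV (median 0.385, beside 0.25 for the members). In sham, those of all 9 tested substrates were above 0 (median 0.707, beside 0.27 for the members). At an unadjusted edgeR p under 0.05, 7 substrates were higher in MOV and 7 in sham, where 4.19% and 5.39% of all genes were. No substrate was called. Between D + Q and vehicle, 1 gene of these lists was called. It was in sham muscle, where 0.187% of the 13926 genes tested were called higher. Fbln5, encoding fibulin-5, which binds Loxl1 protein and elastin, stood at 9.16, 8.17, 7.67, 9.50 and 10.8 CPM in vehicle sham and 11.7, 13.3, 14.2, 14.3 and 12.5 CPM in D + Q sham. These groups did not overlap, and the log2 fold change was 0.53 ± 0.104 (SE; edgeR adjusted p = 0.0436).

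Across the 20 mice, the genes whose centred log2 CPM profile lay nearest to each member were found among 12188 genes, by the root mean square difference. Nearest to Lox were the collagen genes Col5a2 (0.254) and Col1a2 (0.261), and nearest to Loxl2 the collagen VI genes Col6a1 (0.16) and Col6a2 (0.216). Plod2 was nearest to C1qtnf6 (0.259) and Thbs2 (0.278), Loxl1 to Pdpn (0.162) and Fndc1 (0.164), and Loxl3 to Tmsb10 (0.211) and Igfbp4 (0.224). Bmp1 was nearest to Anxa5 (0.134) and Oaf (0.142), and Pcolce to Ptgfrn (0.126) and the fibroblast marker Dpt (0.126). Plod1 was nearest to Slc38a10 (0.0799) and Mxd4 (0.0952), Plod3 to Ppp1r9b (0.0823) and Rcc2 (0.0873), and Loxl4, with the loosest match, to Jund (0.285) and Lrrn4cl (0.321). The difference between MOV and sham makes up most of the spread of such profiles, so this measure mainly finds genes with a like fold change under overload.

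In the GENCODE annotation of GRCm39, Plod2 lies on chromosome 9 from 92424119 to 92490494 with a canonical transcript of 20 exons. Loxl2, Loxl3, Loxl4 and Plod3 each overlap a protein-coding gene on the opposite strand (R3hcc1, Htra2, R3hcc1l and Znhit1), and Pcolce overlaps Fbxo24 on its own strand. Whether the counting used strand is not given in the sources used here, so reads of these overlaps could be shared between the genes.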

How the data were processed

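RNA was measured in plantaris muscle of 20 mice, 5 per group. Per the labels and methods, the authors aligned reads with STAR 2.7.8a to GRCm39 and quantified genes with the expectation-maximization method of Partek Flow, and they deposited estimated counts, not normalized, with 1 column per mouse. Of the values, 29.8% were not whole, and they were rounded. Totals of 17887495 to 26234505 counts limit the precision of low genes such as Loxl4. No pair of libraries of a group agreed within counting noise (lowest variance ratio 6.53).

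Groups were compared with the quasi-likelihood test of edgeR 4.0.16 in R 4.3.3, with robust fitting and TMM factors. A gene was tested if 5 or more mice of the fit had 10 or more counts of it, with Benjamini-Hochberg adjustment over all genes tested and a threshold of 0.05. Each pairwise comparison used its own 10 mice, and the interaction all 20. Each p-value sets the difference between groups against the spread between these mice, estimated with information shared across genes. CPM used factors over all 20 mice. Alternatives were DESeq2 1.42.0, RLE factors, total counts only, no filter, limma-voom (limma 3.58.1) with quality weights, 1 fit of all mice, the replicate number as a block, and each mouse left out. The fit was tested on simulated data for D + Q against vehicle in MOV. It recovered 36.5% of the tested genes changed by 0.5 on the log2 scale and 73.1% of those changed by 1. Of its calls, 97.3% and 96.6% were true. The estimates for the members in that comparison ran from 0.08 to 0.54, and differences under 0.5 were not simulated. Even at 0.5 most changed genes went uncalled, so differences of the size estimated for the members could often go uncalled.

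The members, lists and tests were chosen with earlier results of these data known. Named genes are all members, of each pathway list up to 3 genes with the largest called rise and 3 with the largest called fall in MOV against sham with vehicle, any list gene called between D + Q and vehicle or in the interaction, and the 2 genes nearest to each member. Tmem38b and Atp7a were named after their values were seen. Positions and transcript lengths came from GENCODE vM39, whose names matched 96.1% of rows uniquely.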

Additional observations from a re-analysis of the deposited data

Results flagged for a closer look

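Of the 40 groups of 5 mice (10 members in 4 groups), 2 held a mouse far from the other 4 by Dixon's criterion, and chance gives about 1 in 20. Loxl2 in vehicle sham replicate 4 stood at 14.5 CPM above the 10.9 to 11.3 CPM of the other vehicle sham mice, a gap of 0.882 of the range of the group. Loxl4 in vehicle MOV replicate 4 stood at 3.41 CPM above the 1.35 to 1.82 CPM of the other vehicle MOV mice, a gap of 0.774 of the range. Vehicle sham replicate 4 was the highest of its group for 5 of the 10 members, Loxl2 included, and vehicle MOV replicate 4 for all 10, Loxl4 included. Without the latter, the Loxl4 estimate for D + Q against vehicle in MOV was 0.60, beside 0.29 with it.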

How the results depend on the processing

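In MOV against sham, all 10 members were called higher with either treatment under each of the 7 other settings and each mouse left out, and the 170 values of single members in each treatment under those alternatives kept their direction and their side of the threshold. With scaling by total counts alone the median log2 difference of all genes was 0.36 in vehicle mice and 0.39 with D + Q, beside -0.02 and 0.02 with TMM, and the members moved with it (Plod1 to 1.23 in vehicle mice). In D + Q against vehicle in sham, DESeq2 called 1 member, Lox, where edgeR called 0. The cause was not tested. In the interaction, the Loxl1 estimate of -0.0034 turned to 0.00692 with DESeq2, 0.00624 with RLE factors, 0.0039 with total counts, 0.025 with limma-voom and 0.020 with the replicate block, and ran from -0.167 to 0.156 with each mouse left out. Leaving out single mice also turned the sign of the interaction of Plod3 (-0.017 to 0.092), Bmp1 (-0.014 to 0.236), Loxl4 (-0.46 to 0.0024) and Pcolce (-0.269 to 0.0012), and of Loxl3 in D + Q against vehicle in MOV (-0.0097 to 0.158). None of these was called. The replicate number was entered as a block as well: correlations of deviations between same-numbered mice ran from -0.143 to 0.193 and at most 1 of 5 mice matched its own number best, so the numbers were not taken to pair the mice, and the block changed no count of called members. Low counts limit Loxl4 most, with 9 to 28 counts in sham libraries.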
